A study of Homo sapiens with 12 samples.

Results

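The response of the Pfeiffer line to BCL6 siRNA was measured in 6 of the 12 arrays of the series, 3 of cells given an siRNA against BCL6 and 3 of cells given a non-target control. The other 6 arrays hold BCL6 siRNA and control in the line OCI-Ly7 and were used here only to ask where the responses of the lines differed. Pfeiffer is an established human cell line of diffuse large B-cell lymphoma of the germinal centre B-cell type. Total RNA was taken 48 h after transient transfection, in cells kept in IMDM medium with fetal bovine serum, and hybridised to Affymetrix U133 Plus 2.0 arrays. The titles of the 3 Pfeiffer control samples read NTshRNA, while their descriptions and the design text name an siRNA oligo. The OCI-Ly7 controls are titled NTsiRNA. Both arms are named as the same line, and the fall of BCL6 was partial. The siRNA is 1 reagent whose sequence was not given in the sources used here. Nothing states that the 3 arrays of an arm came from separate cultures. The p-values therefore measure the spread between these arrays, which may be technical. The analysis covered 9888 genes of the 19775 with a probe set of 1 gene symbol, the brighter part in this line, each through its brightest probe set. Levels are log2(signal + 16), changes are BCL6 siRNA minus control on that scale, and ± is the standard error from limma unless named otherwise.

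BCL6 is a zinc finger repressor that germinal centre B cells need. It recruits corepressors and holds down genes of the DNA damage response, of cell cycle arrest, of B cell activation and of plasma cell differentiation, among them PRDM1, whose product BLIMP1 shuts off much of the B cell programme in turn. Germinal centre lymphomas keep BCL6 on, which is why its loss is studied in such lines.

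Arrays of an arm correlated at 0.988 to 0.993 across genes. The first principal component held 49.2% of the variance and separated the arms. BCL6 siRNA replicate 3 stood apart on the second (19.4%) and in the 3' to 5' ratio of the quality probes. The log2 ratio of GAPDH was -0.027 there and between -0.134 and -0.094 on the 5 remaining arrays, and that of ACTB was 0.388 there and between 0.278 and 0.308 elsewhere. Counts that changed without that array are given below. With arrays, precision is limited by how many there are.

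BCL6 itself fell. The brightest of its 3 probe sets gave 13.86, 13.92 and 14.01 in controls and 13.11, 13.04 and 12.75 after siRNA, so the arms did not overlap and siRNA replicate 3 was the lowest. The change was -0.96 ± 0.08, which left 51.3% of the signal (limma, adjusted p = 2.62e-05). Without siRNA replicate 3 it was -0.86. The other probe sets of BCL6 left 40.9% and 51% of the control signal. An exact two-sided permutation test over the arrays gave p = 0.1 for each probe set, the smallest that 3 against 3 allows.

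Of the 9888 genes 14.0% passed an adjusted p of 0.05 in limma, and such genes are called below. They were 686 higher (6.94%) and 703 lower (7.11%), with a median change of 0.41 among the higher and -0.42 among the lower and of 0 over all genes tested. Most changes were small: 36 genes rose and 39 fell by at least 2-fold, 0.758% in all. At an unadjusted p of 0.05, 2837 of the 9888 genes passed, the background for such counts below. The arms did not overlap in 33.2% of all genes and in 1379 of the 1389 called. A second bright probe set was at hand for 736 called genes. Of these 1303 probe sets 87.2% had the sign of the first, 496 were called in the same direction and 7 in the opposite one, in HNRNPA0, RRAGD, RSPH3, TTLL11, ZCCHC10 and ZNF826P. The count of called genes was 751 when control replicate 1 was left out, 904 for control replicate 2 and 836 for control replicate 3, against 1667 when siRNA replicate 3 was left out. It was 918 with no filter on dim genes and 861 with limma run without a trend of variance on level.

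**Figure D1:**
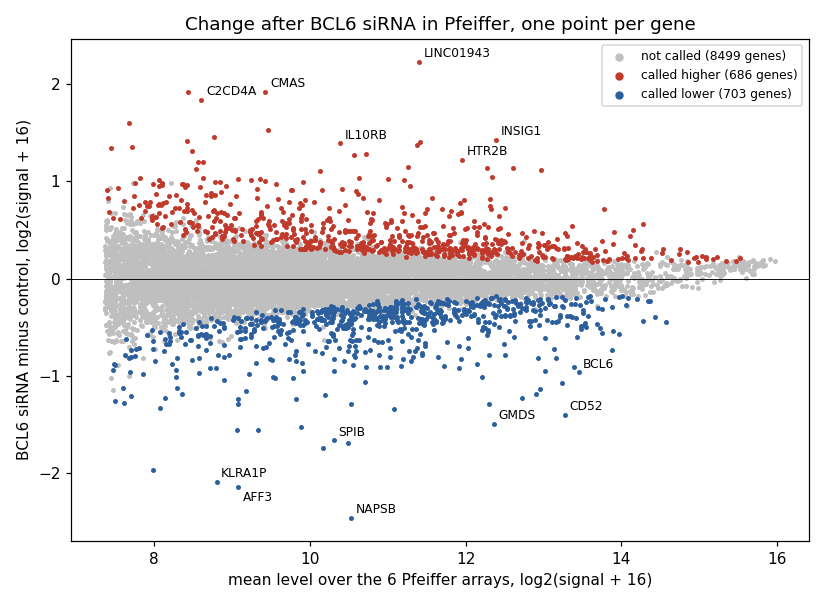
Change after BCL6 siRNA (vertical axis, log2 scale) against the mean level over the 6 Pfeiffer arrays (horizontal axis, log2 scale) for the 9888 genes tested, coloured by limma call. The 686 genes called higher and 703 called lower spread over all levels, and among the labelled genes NAPSB (-2.46) and LINC01943 (2.23) mark the ends.

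The genes that rose most were of several kinds. LINC01943, a long noncoding RNA, read 10.24, 10.26 and 10.35 in controls and 12.38, 12.41 and 12.75 after siRNA. Its rise of 2.23 ± 0.10 was the largest among called genes (limma, adjusted p = 1.67e-07), and the spread within each arm was far smaller than the gap. CSRP2, a LIM domain protein, read 7.23, 7.63 and 7.59 in controls and 9.29, 9.56 and 9.35 after siRNA. Both of its bright probe sets rose, by 1.92 ± 0.16 and 1.25. CMAS, which activates sialic acid for transfer to glycans, rose by 1.92 ± 0.11 on one probe set, while its second bright probe set stood at -0.06. This gene's change therefore rests on 1 of 2 disagreeing probe sets.

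IL10RB, the chain shared by receptors of the interleukin 10 family, read 9.87, 9.68 and 9.52 in controls and 11.07, 11.15 and 11.01 after siRNA, a rise of 1.39 ± 0.10 (limma, adjusted p = 5.56e-06). HTR2B, a serotonin receptor, read 11.30, 11.49 and 11.25 against 12.59, 12.58 and 12.52 (1.22 ± 0.07). SGK1, a serine/threonine kinase often mutated in B cell lymphoma, read 10.73, 10.79 and 10.55 against 11.98, 11.85 and 12.34 (1.37 ± 0.11). In each of these 3 genes all siRNA arrays lay above all control arrays. EGR1, an immediate early transcription factor, rose by 1.28 ± 0.16, and its second bright probe set by 1.58. The control arrays of EGR1 spread from 9.67 to 10.44, wider than those of the 3 genes before it.

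INSIG1, which holds the sterol sensor in the endoplasmic reticulum, rose by 1.43 ± 0.09, and its other probe sets by 0.75 and 1.34. PRDM1, the plasma cell regulator, rose by 1.40 ± 0.07 and read 10.75, 10.76 and 10.66 against 12.04, 12.13 and 12.19. Its second probe set rose by 0.94, while the third stood at 0.47 (limma, adjusted p = 0.0548). RAB23, a small GTPase that acts against Hedgehog signalling, rose by 1.53 ± 0.12, and PDZD8, a protein of membrane contact sites, by 1.31 ± 0.14. The probe sets of PDZD8 disagreed in size, with 0.82 and 0.11 on the other bright ones. STX11, a fusion protein of lymphocyte granules, rose by 1.20 ± 0.16 and by 0.98 on its second probe set.

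The Wnt ligand WNT11 (1.60 ± 0.21), the transporter SLC12A8 (1.35 ± 0.19) and PRG2, known as a granule protein of eosinophils (1.34 ± 0.23), had control means below 7.37, the lowest mean level kept. They entered the test through their siRNA arrays and so had to be higher there. IGHD, the delta heavy chain, stood at 1.46 ± 0.13 on a probe set that can bind related transcripts, and its 4 dim probe sets ranged from -0.17 to 0.46. The remaining largest rises were those of C2CD4A (1.84 ± 0.18), the secreted amino acid oxidase IL4I1 (1.41 ± 0.19), the uncharacterised LOC100310756 (1.27 ± 0.08) and the actin regulator PHACTR1 (1.20 ± 0.18).

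The falls reached further than the rises. NAPSB, a transcribed pseudogene of the aspartic peptidase napsin, read 11.83, 11.66 and 11.79 in controls and 8.97, 9.40 and 9.51 after siRNA. The change of -2.46 ± 0.13 was matched by -2.34 on its second probe set (limma, adjusted p = 4.8e-07 for the first). AFF3, a nuclear factor of lymphoid cells, read 10.09, 10.18 and 10.17 against 8.18, 8.23 and 7.62, a fall of 2.14 on the log2 scale. Here siRNA replicate 3 lay lowest, and the arms stayed apart without it. SPIB, an Ets factor of B cells, fell on both probe sets, to -1.66 ± 0.10 and -1.25. ALOX5AP, needed for leukotriene synthesis, read 10.12, 10.08 and 10.13 against 8.52, 8.64 and 8.52.

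GMDS, the first enzyme on the way from GDP-mannose to GDP-fucose, fell evenly. It read 13.15, 13.10 and 13.07 in controls and 11.57, 11.72 and 11.57 after siRNA, with -1.49 on each of its bright probe sets (limma, adjusted p = 1.67e-07 for the first). CD52, a lipid-anchored surface antigen of lymphocytes, read 13.94, 13.95 and 14.01 against 12.54, 12.65 and 12.50. Its 2 probe sets gave -1.40 ± 0.06 and -1.62. Both of these genes were among the tightest of the falls, with every siRNA array more than 1 log2 unit below every control array.

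MCOLN2, a cation channel of endosomes and lysosomes, stood at -1.29 ± 0.08 and -1.18 on its probe sets. The reductase CYB561A3 stood at -1.29 ± 0.07 and the transporter MFSD1 at -1.34 ± 0.07. RNF144B, a ubiquitin ligase, fell on all 3 bright probe sets, by -1.52 ± 0.12, -1.01 and -1.30. PVRIG, an inhibitory receptor of lymphocytes, stood at -1.24 ± 0.11, and 2 genes of the natural killer lectin receptor cluster at -2.09 ± 0.15 (the pseudogene KLRA1P) and -1.26 ± 0.24 (KLRC4).

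The siRNA means of LINC01215 (7.01), PLXNC1 (6.98) and KLRC4 (6.87) lay below 7.37, the lowest mean level kept, so these genes entered the test through their control arrays and had to be lower after siRNA. The remaining largest falls were in LINC01215 (-1.97 ± 0.18), PALM2 (-1.74 ± 0.10), MAP3K7CL (-1.69 ± 0.11), the sodium channel SCN4A (-1.56 ± 0.13), the interferon-induced TRIM22 (-1.33 ± 0.23), CCDC28B (-1.29 ± 0.11) and the semaphorin receptor PLXNC1 (-1.28 ± 0.34). PLXNC1 rested on few arrays: siRNA replicate 3 read 6.03 against 7.26 and 7.66, the change was -0.81 without it, and the call was lost without control replicate 1 (-1.14) or control replicate 3 (-1.28).

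**Figure D2:**
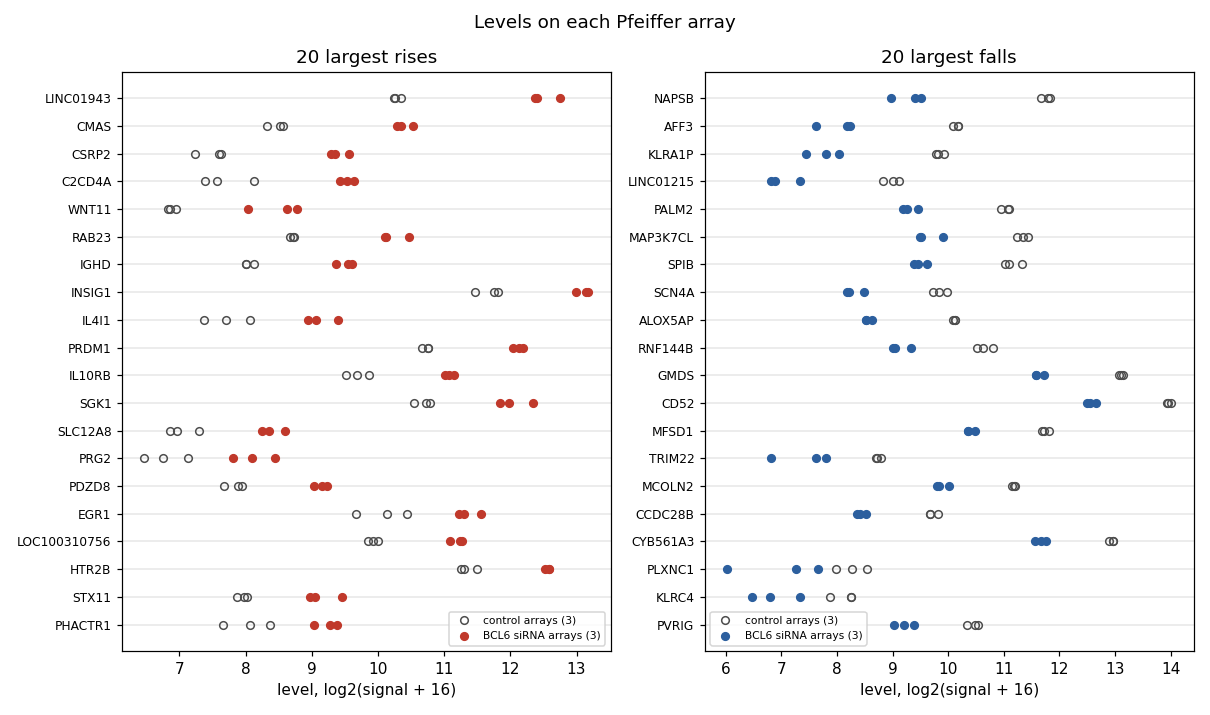
Level on each Pfeiffer array (horizontal axes, log2 scale) for the 20 largest rises (left) and the 20 largest falls (right) among called genes whose arms do not overlap. Open points are the 3 control arrays and filled points the 3 siRNA arrays, which lie to the right of the controls in the left panel and to the left in the right panel.

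Of 22 B lineage transcription factors tested 8 were lower and 2 higher, 45.5% called against 14.0% over all genes. Their median was -0.23 against 0 over all genes. Beside SPIB and AFF3 the lower ones included the octamer factor POU2F2 (-0.95 ± 0.11) and the B cell commitment factor PAX5 (-0.53 ± 0.13). PAX5 read 12.45, 12.61 and 12.38 in controls and 11.97, 12.27 and 11.62 after siRNA, so the arms lay close together without overlap. The Ets factor FLI1 rose (0.61 ± 0.08), as did POU2AF1, the coactivator of octamer factors (0.27 ± 0.05). When all probe sets of a gene were averaged, FLI1 stood at 0.26 and POU2AF1 at 0.01, neither called, and 5 factors were lower and 0 higher. The other bright probe sets of FLI1 were called higher (0.60 and 0.52), while its dim ones ranged from -0.39 to 0.46. Without control replicate 2, 5 factors were lower, and without siRNA replicate 3, 7 were.

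Of 27 B cell receptor signalling genes 6 were lower and 1 higher (median -0.07), against 7.11% and 6.94% over all genes. With probe sets averaged, 3 were lower and 0 higher. CD79B, a signalling chain of the receptor, read 13.49, 13.47 and 13.51 against 12.76, 12.75 and 12.81, a change of -0.72 ± 0.05 (limma, adjusted p = 6.09e-06). Its other 2 probe sets were dim and stood at -0.36 and 0.08, and their average with the first was -0.33 and not called. The kinase SYK fell too (-0.49 ± 0.06), while protein kinase C beta, PRKCB, rose (0.59 ± 0.14), a call lost without control replicate 2. Of the 7 B cell markers tested 6 were lower, MS4A1, CD79B, CD22, PAX5, CD37 and BLK, and CD79A stood at -0.11. CD37, a tetraspanin of mature B cells, fell most, by -1.13. The summed signal of the marker list was 56490 to 57220 on control arrays and 35290 to 39877 on siRNA arrays. In RNA of a whole culture, fewer cells of a kind and less RNA per cell cannot be told apart.

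Among 21 germinal centre genes 6 were lower and 2 higher (median -0.05), 38.1% called against 14.0% over all genes. ELL3, an elongation factor of B cells, fell by -1.18 ± 0.08, from 13.46, 13.54 and 13.48 to 12.37, 12.44 and 12.12. KLHL6, a ubiquitin ligase adaptor, fell by -0.63 ± 0.08, and MYBL1, a Myb factor of germinal centre cells, by -0.92 ± 0.13. The surface peptidase MME, known as CD10, stood higher (0.49 ± 0.13), as did HMGN1 (0.19 ± 0.05). The calls of MME and HMGN1 were lost without any of control replicates 1, 2 and 3 and siRNA replicates 1 and 2, where 0 members were called higher. Both calls were also lost with probe sets averaged. Without control replicate 1, 4 genes of the list were lower.

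Of 21 class II presentation genes 8 were lower and 0 higher, 38.1% called against 14.0% over all genes. The lower count stayed at 8 on leaving out any of the 6 arrays, and 9 genes passed an unadjusted p of 0.05. Over all 9888 genes 2837 passed that p. HLA-DMB, a chain of the peptide exchange factor, read 13.34, 13.45 and 13.71 against 12.70, 12.60 and 12.35 (-0.95 ± 0.10). The cathepsins CTSS (-0.71 ± 0.07) and CTSH (-0.54 ± 0.05) and the chain HLA-DQA1 (-0.49 ± 0.05) were lower as well. Genes central to the pathway did not pass: the class II chain HLA-DRA stood at 0.01 ± 0.06, the invariant chain CD74 at -0.01 ± 0.07 and the transactivator CIITA at -0.19 ± 0.11 (limma, adjusted p = 0.279 to 0.961). HLA genes share sequence, so their probe sets may bind each other's transcripts. In class I presentation 10.5% of genes were called, under the 14.0% over all genes: 2 of 19 were lower, TAPBP (-0.74 ± 0.12) and PDIA3 (-0.23 ± 0.05), and 0 were higher, with 6 at an unadjusted p of 0.05. Without control replicate 1 PDIA3 lost its call, without control replicate 3, 1 gene was called higher, and without siRNA replicate 3, 3 were lower.

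**Figure D3:**
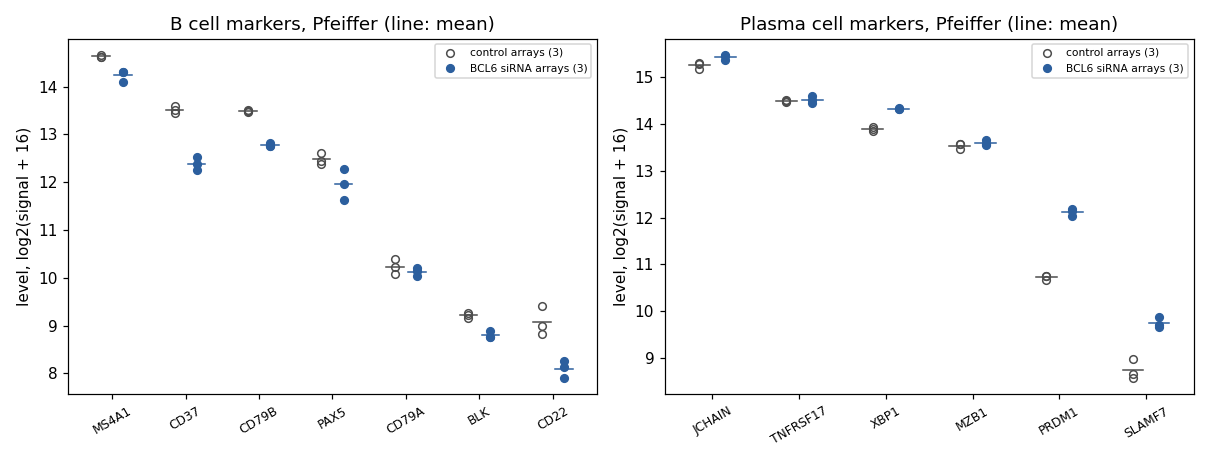
Levels (vertical axes, log2 scale) of the B cell markers (left) and plasma cell markers (right) that passed the filter, on the 3 control arrays (open) and 3 siRNA arrays (filled) of Pfeiffer, with lines at the means. Of the B cell markers 6 of 7 are lower after siRNA, and of the plasma cell markers 4 of 6 are higher, with PRDM1 and SLAMF7 farthest apart.

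On the plasma cell side 10 of 21 genes were higher and 0 lower (median 0.26), 47.6% called against 14.0% over all genes. On leaving out any of the 6 arrays 9 or 10 were higher, and without siRNA replicate 3, 1 was lower. With probe sets averaged, 7 were higher and IRF4 was not among them. At an unadjusted p of 0.05, 13 passed in either direction, against 2837 of all 9888 genes. PRDM1 led, followed by SLAMF7, a surface receptor of plasma cells (1.01 ± 0.13), the elongation factor ELL2, which takes part in the switch to secreted antibody (1.01 ± 0.12), and IRF4 (0.82 ± 0.08). IRF4, a transcription factor of plasma cell fate, read 11.92, 11.77 and 12.01 against 12.62, 12.66 and 12.89. XBP1, the secretory regulator, rose by 0.44 ± 0.05 and the joining chain JCHAIN by 0.18 ± 0.05. The markers MZB1 (0.07) and TNFRSF17 (0.03) did not pass, and CD38 and SDC1 were below the filter. The summed marker signal was 88374 to 92910 on control arrays and 103083 to 107502 after siRNA, with no overlap.

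Chaperones of the endoplasmic reticulum did not move with the plasma cell genes as a list. Of 34 folding genes 4 were higher and 4 lower (median -0.03), 23.5% called against 14.0% over all genes. HSP90B1 rose most (0.72 ± 0.06), from 13.35, 13.49 and 13.43 to 14.24, 14.14 and 14.05. Its second probe set rose by 0.66, and both are probe sets that can bind related transcripts. The oxidoreductase ERP44 fell (-0.43 ± 0.05, or -0.56 and not called with cross-binding probe sets left out), as did PDIA3. The count of higher genes was 1 on leaving out any array other than siRNA replicate 3, with which left out it was 4, and it was 1 with probe sets averaged. Lower genes numbered 1 without control replicate 1, 2 without siRNA replicate 2 and 6 without siRNA replicate 3. Of 28 heat shock chaperones 14.3% were called, close to the 14.0% over all genes, 3 higher and 1 lower, led by HSPB1 (0.51 ± 0.11) and DNAJB6 (-0.42 ± 0.08). The count of higher chaperones was 1 without control replicate 1 and 5 without siRNA replicate 3.

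Of the 29 lists, that of transfer RNA synthetases and amino acid supply had the largest share of genes called higher. Of 31 genes 17 were higher and 1 lower (median 0.29), against 6.94% higher over all genes, and the count stayed between 15 and 18 on leaving out any array. It was 11 with probe sets averaged. The leading ones were CHAC1, which degrades glutathione (0.98 ± 0.18), the cystine transporter SLC7A11 (0.69 ± 0.15), WARS1, the synthetase for tryptophan (0.69 ± 0.09), the serine synthesis enzyme PSAT1 (0.51 ± 0.07) and SHMT2, which moves one-carbon units from serine (0.47 ± 0.06). WARS1 read 11.68, 11.53 and 11.57 against 12.14, 12.23 and 12.47. The steps were small but regular: SHMT2 read 13.06, 12.98 and 13.07 against 13.46, 13.45 and 13.62. ATF4, the transcription factor of this response, rose by 0.28 ± 0.06. The 1 lower gene, ALDH18A1 of proline synthesis (-0.27 ± 0.07), lost its call without control replicate 1, 2 or 3.

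The promoters of this list were searched because its members moved together. The windows were the 250 bases before the RefSeq start on GRCh38.p14, which 8218 of the 9888 genes tested had. The letters TGATGNAA, a form of the element that ATF4 can bind, stood on one strand or the other in 4 of 24 windows of the list (16.7%), in 1.42% of the windows of tested genes and in 3.19% of all 27305 windows. A match describes the letters and does not show a bound site. The 4 genes with a match were all called higher. Of them 3 are shown to set the gene of the list that rose most beside 2 that rose little, with the match in capitals, written TTGCATCA where it lies on the opposite strand.
CHAC1 (chr15:40953222-40953309, + strand): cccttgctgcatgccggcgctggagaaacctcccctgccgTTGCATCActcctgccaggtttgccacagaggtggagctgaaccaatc
ASNS (chr7:97872429-97872516, - strand): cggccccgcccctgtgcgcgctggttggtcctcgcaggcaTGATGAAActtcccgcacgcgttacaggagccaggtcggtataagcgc
AARS1 (chr16:70289646-70289733, - strand): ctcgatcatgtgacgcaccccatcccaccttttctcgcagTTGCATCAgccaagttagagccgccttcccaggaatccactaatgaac
Of these genes CHAC1 changed most, while ASNS, asparagine synthetase, rose by 0.32 ± 0.06 and AARS1, the alanine synthetase, by 0.30 ± 0.07.

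Of 26 interferon response genes tested 12 were lower and 2 higher (median -0.32), against 7.11% lower over all genes, and 12 more listed genes were below the filter. MX1, an antiviral GTPase, read 10.92, 10.62 and 10.84 against 9.42, 9.47 and 9.90, a change of -1.20 ± 0.13 (limma, adjusted p = 0.000129). OAS2, which makes 2'-5' oligoadenylates, fell by -0.78 ± 0.12 on its brightest probe set. Its other bright probe sets stood at -0.43 and -0.17 and were not called, nor was the average of all 3 (-0.46). The ubiquitin-like ISG15 fell by -0.70 ± 0.12. IRF9, the DNA-binding part of the interferon-activated factor, fell by -0.56 ± 0.11. ISG20 (0.33 ± 0.08), an exonuclease, and BST2 (0.26 ± 0.07), which tethers budding virus, went the other way. The count of lower genes was 7 without control replicate 1, 9 without control replicate 2, 8 without control replicate 3, 8 without siRNA replicate 1, 7 without siRNA replicate 2 and 13 without siRNA replicate 3. The calls of ISG20 and BST2 were both lost without control replicate 1 or 2, ISG20 also without siRNA replicate 2 and BST2 without siRNA replicate 1. A second bright probe set of ISG20 rose by 0.49 and was called with all 6 arrays.

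The core of the interferon-stimulated element, GAAA and GAAA with any 2 bases between, stood in 7 of 20 windows of this list (35.0%), in 2.31% of those of tested genes and in 3.07% of all windows. Among called genes looked up, those with a match were ISG15, which fell, and ISG20 and BST2, which rose. The same letters thus lay upstream of genes that moved in opposite directions. They are shown for that reason, with matches in capitals.
ISG15 (chr1:1013344-1013439, + strand): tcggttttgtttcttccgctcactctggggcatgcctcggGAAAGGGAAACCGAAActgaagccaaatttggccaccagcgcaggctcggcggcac
ISG20 (chr15:88638907-88638996, + strand): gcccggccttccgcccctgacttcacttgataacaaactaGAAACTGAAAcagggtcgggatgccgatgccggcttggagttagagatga
BST2 (chr19:17405705-17405800, - strand): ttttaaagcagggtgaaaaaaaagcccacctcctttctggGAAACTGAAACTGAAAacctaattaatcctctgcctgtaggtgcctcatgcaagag
Genes picked by rule were also looked up for TTCCTNGAA, a consensus for BCL6 itself. Genes without a window, and those on a chromosome left out of such lookups, could not be found. Among the rest BST2 was the only match. Not every gene named in the text was looked up. The match is in capitals in the next line.
BST2 (chr19:17405640-17405728, - strand): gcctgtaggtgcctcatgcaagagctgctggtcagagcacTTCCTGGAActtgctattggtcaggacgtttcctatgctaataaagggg
Over all tested genes 0.937% of windows held that consensus, with 12 of 561 windows of genes called higher (2.14%) and 3 of 574 of genes called lower (0.523%). In 0 of 23 windows of known BCL6 repression targets and 0 of 15 and 13 windows of the 20 largest rises and falls were these letters found.

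The known BCL6 repression targets themselves divided. Of 26 tested 6 were higher and 2 lower (median 0.03), 30.8% called against 14.0% over all genes. The higher ones were PRDM1, IRF4, the cell cycle inhibitor CDKN1B (0.73 ± 0.09), LITAF, an endosomal protein (0.64 ± 0.07), TNFAIP3, which restrains NF-kB (0.57 ± 0.11), and the checkpoint kinase CHEK1 (0.45 ± 0.08). The lower ones were the adaptor MYD88 (-0.34 ± 0.08) and IRF7 (-0.40 ± 0.11), an interferon regulator that stands in the interferon list too. Neither lower call held without control replicate 1, control replicate 3 or siRNA replicate 2, where 0 were lower, and 1 was lower without siRNA replicate 1. Without siRNA replicate 3 the counts were 8 higher and 2 lower. When every probe set of a gene was averaged, IRF4 (0.54), TNFAIP3 (0.37) and CHEK1 (0.21) were not called, which left 3 higher. Those averages include dim probe sets of IRF4 (0.09) and CHEK1 (-0.35). The other bright probe sets of IRF4 (0.71) and CHEK1 (0.43 and 0.32) were called higher, and that of TNFAIP3 (0.16) was not called.

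Of 49 G2/M genes 18 were higher and 0 lower, 36.7% called against 14.0% over all genes. The median was 0.21, 45 of 49 stood above 0, and 29 passed an unadjusted p of 0.05, against 2837 of all 9888 genes. BUB1, a kinase of the spindle checkpoint, rose most, from 11.07, 11.21 and 11.18 to 12.06, 11.93 and 11.96 (0.83 ± 0.07), and its second bright probe set gave 0.88. With its dim probe sets, 2 of which stood at -0.55 and -0.35, the average was 0.34 and not called. The proliferation antigen MKI67 read 11.17, 11.27 and 11.18 against 11.83, 11.62 and 11.79 (0.54 ± 0.07). Its other bright probe sets gave 0.58, which was called, and 0.31 and 0.12, which were not. KIF23, a motor of cell division, stood at 0.49 ± 0.10. Of 39 S phase genes 16 were higher and 0 lower, 41% called against 14.0% over all genes. The median was 0.19, with 21 at an unadjusted p of 0.05. RRM2 (0.56 ± 0.05) and RRM1 (0.34 ± 0.06), the subunits of ribonucleotide reductase, led the rises. RRM2 read 13.98, 14.05 and 13.95 against 14.61, 14.48 and 14.57. Single calls rested on every array in part. The G2/M count was 6 without control replicate 1, 13 without control replicate 2, 6 without control replicate 3, 8 without siRNA replicate 1, 10 without siRNA replicate 2 and 19 without siRNA replicate 3. The S phase count was 5, 10, 7, 9, 13 and 14 in the same order. With probe sets averaged, 12 G2/M and 10 S phase genes were higher, while 6 G2/M genes were without the variance trend and 9 with no filter on dim genes.

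The cell cycle homology region TTTGAA, which G2/M promoters carry near the start, stood in 23 of 42 windows of the G2/M list (54.8%), in 8.3% of those of tested genes and in 13.6% of all windows. The letters TTTNGCGC of the E2F element stood in 7 of 34 windows of the S phase list (20.6%), 2.64% of those of tested genes and 1.54% of all. Windows of called members of each list are shown, with matches in capitals. In ORC6 the match lies on the opposite strand, and in MCM6 matches of both strands overlap.
MKI67 (chr10:128126424-128126510, - strand): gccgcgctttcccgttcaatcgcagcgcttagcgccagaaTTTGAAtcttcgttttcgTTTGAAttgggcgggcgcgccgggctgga
NCAPG (chr4:17810904-17810978, + strand): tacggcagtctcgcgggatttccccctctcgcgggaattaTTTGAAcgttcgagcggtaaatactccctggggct
KIF23 (chr15:69414254-69414339, + strand): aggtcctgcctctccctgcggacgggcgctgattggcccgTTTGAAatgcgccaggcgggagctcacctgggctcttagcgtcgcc
MCM6 (chr2:135876482-135876635, - strand): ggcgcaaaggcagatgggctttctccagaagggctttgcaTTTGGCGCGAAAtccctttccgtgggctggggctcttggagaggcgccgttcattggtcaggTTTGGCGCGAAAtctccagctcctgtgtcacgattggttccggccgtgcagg
ORC6 (chr16:46689496-46689583, + strand): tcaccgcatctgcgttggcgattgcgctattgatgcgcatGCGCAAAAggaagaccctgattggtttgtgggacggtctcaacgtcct
MKI67 holds the G2/M letters at 2 places. NCAPG, a condensin subunit, rose by 0.38 ± 0.07, ORC6, of the origin recognition complex, by 0.36 ± 0.08 and MCM6, of the replicative helicase, by 0.19 ± 0.05.

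Regulators of G1 moved both ways. Of 22 genes 5 were higher and 2 lower (median 0.15), 31.8% called against 14.0% over all genes. CDK6, a kinase that drives entry into the cycle, read 11.64, 11.62 and 11.46 against 12.46, 12.32 and 12.36 (0.81 ± 0.07, limma, adjusted p = 2.42e-05). CDKN1B, an inhibitor of such kinases, read 9.89, 9.95 and 9.81 against 10.62, 10.69 and 10.54. A driver and an inhibitor thus rose side by side by similar amounts. E2F5, a repressor E2F, fell (-0.63 ± 0.08, or -0.40 and not called on the mean of its probe sets), and RB1 stood at -0.47 ± 0.13, a call lost without control replicate 1, 2 or 3 or siRNA replicate 2. Of 26 DNA damage genes 5 were higher and 0 lower, 19.2% called against 14.0% over all genes. The higher ones included the helicase BLM (0.54 ± 0.06) and CHEK1. The count was 3 without control replicate 1, control replicate 3 or siRNA replicate 1. It was 4 without siRNA replicate 3 and 3 with probe sets averaged. At an unadjusted p of 0.05, 10 passed, against 2837 of all 9888 genes.

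Of 27 genes of cholesterol synthesis and uptake 3 were higher and 5 lower (median -0.01), 29.6% called against 14.0% over all genes. Both INSIG genes rose, INSIG1 as above and INSIG2 from 9.08, 8.98 and 9.19 to 10.00, 10.04 and 10.12 (0.97 ± 0.10). Both cholesterol exporters fell, ABCA1 by -1.04 ± 0.15 and ABCG1 by -1.02 ± 0.12. ABCA1 read 9.36, 9.59 and 9.33 in controls and 8.09, 8.61 and 8.46 after siRNA, and its second bright probe set gave -0.80. With cross-binding probe sets left out ABCG1 stood at -0.48 and was not called. The synthesis enzymes LSS (-0.31 ± 0.08) and SC5D (-0.37 ± 0.06) were lower. Without control replicate 1, 3 sterol genes were lower, and without siRNA replicate 3, 7 were lower and 4 higher. With probe sets averaged, 1 was lower and 4 were higher.

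Of 32 lysosomal genes 6 were lower and 4 higher (median -0.10), 31.2% called against 14.0% over all genes. The lower ones were led by LAPTM4A (-0.83 ± 0.07) and CTSS, the higher ones by the hydrolase GLA (0.40 ± 0.07) and LAPTM5 (0.30 ± 0.06). LAPTM4A read 12.32, 12.44 and 12.30 against 11.57, 11.56 and 11.42, so the 2 related membrane proteins moved in opposite directions. Lower genes numbered 4 without control replicate 1 and 8 without siRNA replicate 3. Of 29 genes of glycolysis and the hypoxia response 8 were higher and 0 lower, 27.6% called against 14.0% over all genes. The median was 0.13, with 15 at an unadjusted p of 0.05, against 2837 of all 9888 genes. PFKFB4, which sets the level of an activator of glycolysis, rose by 0.76 ± 0.12 and ANKRD37, a hypoxia-induced gene, by 0.47 ± 0.09. With probe sets averaged PFKFB4 stood at 0.63 and ANKRD37 at 0.46, neither called, and 4 genes were higher. The count was 4 without control replicate 1, 3 without control replicate 2, 4 without siRNA replicate 1, 5 without siRNA replicate 2 and 9 without siRNA replicate 3.

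Of 30 receptors and adhesion genes 7 were lower and 4 higher (median -0.01), 36.7% called against 14.0% over all genes. The integrin chain ITGAL read 10.75, 10.76 and 10.84 against 9.64, 9.90 and 9.97 (-0.95 ± 0.10). LTB, a lymphotoxin chain, fell by -0.78 ± 0.06 on its brightest probe set and stood at 0.37 on the dim second, so its direction differs between them. IL21R, the receptor of a cytokine of follicular helper T cells, rose by 0.35 ± 0.05, next to IL10RB. The count of lower genes was 3 without control replicate 1, 3 without control replicate 2, 4 without control replicate 3, 3 without siRNA replicate 1, 4 without siRNA replicate 2 and 8 without siRNA replicate 3. Lower genes numbered 3 with probe sets averaged.

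Of 24 genes of NF-kB and B cell activation 4 were higher and 2 lower (median 0.01), 25% called against 14.0% over all genes. The higher ones were IL4I1, TNFAIP3, the inhibitor NFKBIA (0.47 ± 0.10) and the caspase 8 regulator CFLAR (0.25 ± 0.07). CFLAR was called with all 6 arrays but not without control replicate 1, 2 or 3 or siRNA replicate 2 or 3. Most other bright probe sets of CFLAR were called higher, at 0.42 to 0.52, while the rest stood at 0.29, -0.06 and -0.49 and were not called. The average of all its probe sets was 0.30 and not called. The activation marker CD83 fell from 13.70, 13.81 and 13.82 to 12.63, 12.80 and 12.69 (-1.07 ± 0.06), and the survival gene BCL2A1 from 14.24, 14.20 and 14.27 to 13.44, 13.72 and 13.37 (-0.73 ± 0.08). CD83 and BCL2A1 are commonly used as NF-kB targets, as is TNFAIP3, and they moved in opposite directions. Without siRNA replicate 2, 3 genes of this list were lower, and with probe sets averaged 2 were higher.

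Of 16 immediate early genes tested 4 were higher and 1 lower (median 0.20), 31.2% called against 14.0% over all genes. Below the filter were 13 more. EGR1 was joined by the phosphatases DUSP22 (0.67 ± 0.06) and DUSP5 (0.97 ± 0.14) and by IER3 (0.62 ± 0.10), and the Ras pathway inhibitor SPRED2 fell (-0.45 ± 0.06). The mean of the SPRED2 probe sets stood at -0.08 and was not called. Among 28 apoptosis regulators 4 were lower and 2 higher, 21.4% called against 14.0% over all genes. BCL2A1 and the proapoptotic BCL2L11 (-0.26 ± 0.06) were lower and the death receptor TNFRSF10A (0.55 ± 0.13) was higher. The call of BCL2L11 rests on 1 of 7 bright probe sets. The 6 others ranged from -0.17 to 0.03 and were not called, and the average was -0.11. The count of higher regulators was 0 without control replicate 3, 2 without siRNA replicate 3 and 1 without each other array.

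Of 24 p53 targets 4 were higher and 3 lower (median 0.04), 29.2% called against 14.0% over all genes. The polymerase POLH (0.79 ± 0.14) and TP53INP1 (0.95 ± 0.19) rose, and the antiproliferative BTG1 (-0.78 ± 0.08) and TP53I3 (-0.50 ± 0.12) fell. The count of higher targets was 2 without any of control replicates 1, 2 and 3 and siRNA replicate 2 and 6 without siRNA replicate 3, and that of lower targets was 1 without control replicate 1 or siRNA replicate 1 and 2 without control replicate 2 or 3. Among 34 chromatin regulators 11.8% were called, under the 14.0% over all genes, 2 higher and 2 lower. HDAC1, a deacetylase of corepressor complexes, fell from 14.20, 14.28 and 14.28 to 13.68, 13.66 and 13.70 (-0.57 ± 0.05), and the acetyltransferase KAT2B rose (0.62 ± 0.08). DNMT1 (0.21 ± 0.06) lost its call without any array other than siRNA replicate 1, and HDAC5 (-0.55 ± 0.16) without any of the 6 arrays.

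Other lists stayed near or under the share over all genes. Of 40 cytosolic ribosomal proteins 0 were called by limma, with 17 at an unadjusted p of 0.05, against 2837 of all 9888 genes. All 40 had a positive change, with a median of 0.13. Under quantile normalization the median was 0.00 and 20 were positive, so this shift depended on the scaling of the brightest probe sets. Without control replicate 3, 11 were called higher and without siRNA replicate 2, 4 were. Of 41 respiratory chain subunits 1 was higher, SDHA (0.31 ± 0.08), and 1 lower, SDHD (-0.24 ± 0.07), and under quantile normalization 6 were lower. Of 33 ribosome biogenesis genes 2 were lower, UTP3 (-0.33 ± 0.06) and UTP14A (-0.32 ± 0.09), and 0 higher, with 5 at an unadjusted p of 0.05. Of 29 proteasome subunits 2 were higher, PSMA1 (0.27 ± 0.06) and PSMD14 (0.19 ± 0.05), and 1 lower, PSME3 (-0.27 ± 0.08). Of 27 genes of fatty acid and phospholipid synthesis 1 was higher, SPTLC1 (0.54 ± 0.07), and 2 lower, ACSL1 (-0.54 ± 0.11) and PTDSS1 (-0.24 ± 0.07), with 6 lower without siRNA replicate 3 and 1 lower without each other array. Leaving out control replicate 1, 2 or 3 left 0 respiratory chain genes called, and 1 ribosome biogenesis gene lower. The higher proteasome count was 0 without control replicate 1 and 1 without control replicate 2 or 3 or siRNA replicate 1, and its lower count was 0 without any array other than siRNA replicate 3. With probe sets averaged, SPTLC1 (0.31), PTDSS1 (-0.24), UTP14A (-0.15), PSME3 (-0.31) and SDHD (-0.18) were not called.

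**Figure D4:**
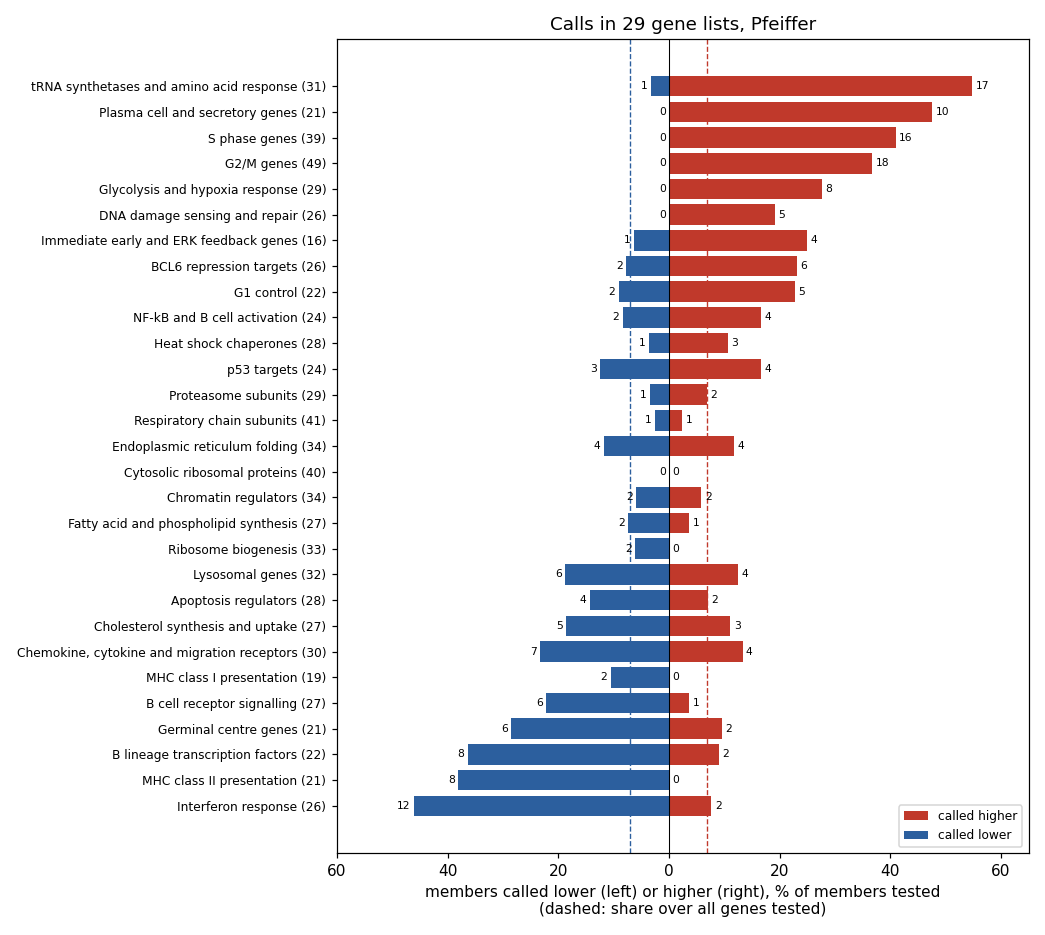
Share of the tested members of 29 gene lists called higher (right, red) or lower (left, blue) by limma in Pfeiffer, with the number called beside each bar and the number tested in brackets. Dashed lines mark the share over all 9888 genes (6.94% higher and 7.11% lower). The lists of tRNA synthetases and of plasma cell genes reach furthest to the right and the interferon list furthest to the left.

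Markers of other cell types were low, with exceptions. The T cell receptor chains CD3D, CD3E and CD3G were below the filter, while CD8A was bright and rose (13.57 to 13.81) and LCK fell (-1.02). The summed T cell list ran from 12758 to 14564 on control arrays and 14524 to 16166 on siRNA arrays. Of 8 natural killer markers only PRF1 passed the filter (-0.01), with summed signals of 802 to 898 and 846 to 895. Of 8 myeloid markers measured 0 passed it, with sums of 197 to 390 and 355 to 439. Of 7 fibroblast markers COL1A1 alone did (-0.15), with sums of 729 to 864 and 712 to 761. The epithelial adhesion molecule EPCAM was bright in both arms (14.06 and 13.87), and the keratin KRT5 rose by 1.02, with epithelial sums of 17608 to 18674 and 15743 to 16823. The part of these shifts in other results was not tested.

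The response of Pfeiffer was then set against that of OCI-Ly7, fitted on all 12 arrays over the same genes. The controls are titled NTshRNA in Pfeiffer and NTsiRNA in OCI-Ly7, and a difference in control cannot be told apart from one of line. OCI-Ly7 had 277 called genes (2.80%), among genes picked for their level in Pfeiffer, some of which are dim in OCI-Ly7. The difference in response was called for 848 genes (8.58%), 364 with a more positive and 484 with a more negative change in Pfeiffer. The fall of BCL6 was deeper in Pfeiffer, by -0.54 against OCI-Ly7 (adjusted p = 0.00466 in limma), and its part in the differences of other genes was not tested.

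Some genes moved in opposite directions in the lines. CD52 changed by -1.40 in Pfeiffer and by 0.23 in OCI-Ly7, where its controls read 14.08, 14.14 and 14.14 and its siRNA arrays 14.34, 14.35 and 14.35 (difference -1.63, limma, adjusted p = 2.5e-09). CD83 changed by -1.07 and 0.45 (difference -1.52, adjusted p = 2.21e-08 in limma) and CD79B by -0.72 and 0.38 (difference -1.10, adjusted p = 4.92e-08). For each of these 3 genes both changes were called and the arms of each line did not overlap. CDK6 showed the reverse, with 0.81 in Pfeiffer and -0.38 in OCI-Ly7 (difference 1.18, limma, adjusted p = 1.58e-06).

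Others changed alike or further in OCI-Ly7. IL21R rose by 0.35 in both lines, with a difference of -0.01 that was not called. HSP90B1 rose by 0.72 in Pfeiffer and 1.10 in OCI-Ly7 (difference -0.38, limma, adjusted p = 0.0188), and LAPTM5 by 0.30 and 0.91. MFSD1 fell in both, by -1.34 and -0.70, and further in Pfeiffer (difference -0.64, limma, adjusted p = 0.0014). By list, against 8.58% over all genes, the difference was called for 10 of 21 class II genes, 10 of 26 interferon genes, 10 of 27 B cell receptor signalling genes and 11 of 30 receptors and adhesion genes. It was called for 11 of 31 tRNA synthetase and amino acid genes, 7 of 21 plasma cell genes, 7 of 22 B lineage factors, 6 of 21 germinal centre genes, 10 of 49 G2/M genes and 8 of 39 S phase genes.

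**Figure D5:**
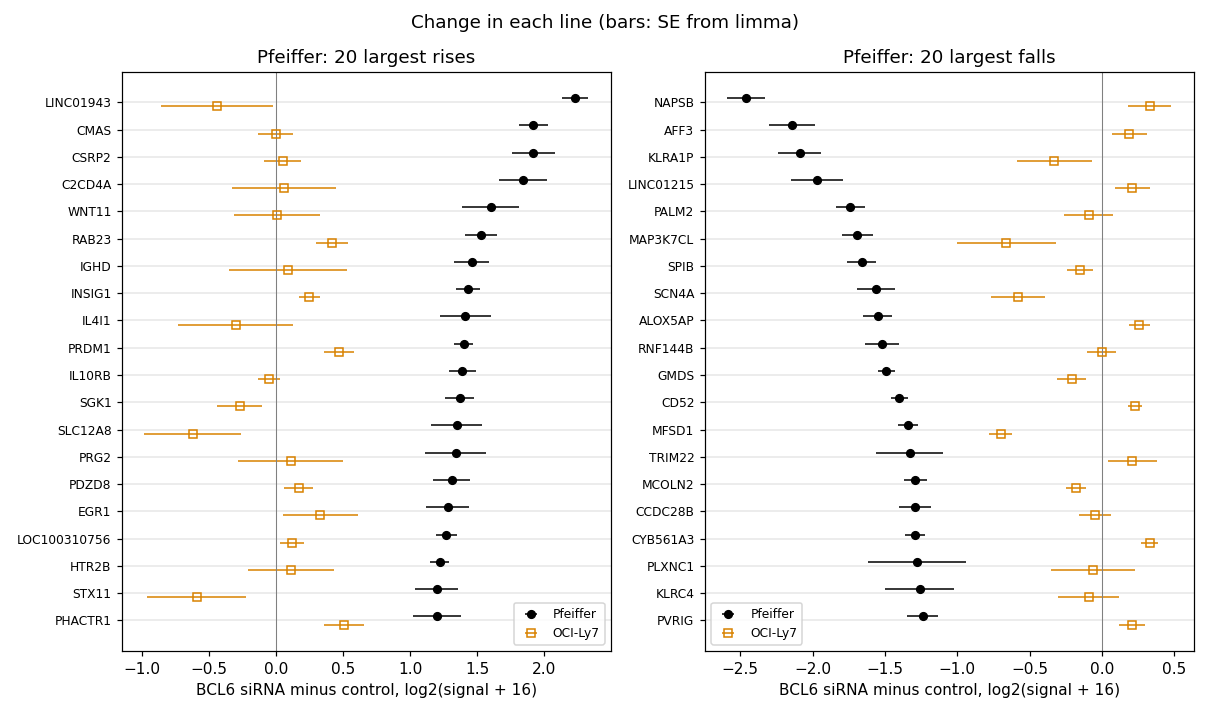
Change after BCL6 siRNA (horizontal axes, log2 scale) in Pfeiffer (filled circles) and OCI-Ly7 (open squares) for the 20 largest rises (left) and 20 largest falls (right) of Pfeiffer, with bars of 1 standard error from limma. The genes were chosen for their size in Pfeiffer, where each rise is 1.20 or more and each fall -1.24 or less, and the OCI-Ly7 points run from -0.70 (MFSD1) to 0.51 (PHACTR1).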

How the data were processed

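Per the labels, total RNA was hybridised to Affymetrix U133 Plus 2.0 arrays. The deposited values are log2 MAS5 signals, made by the authors with MAS5 and affy per the submitters' processing notes, each array scaled to a trimmed mean of 500.0. From the 54675 probe sets, those with 1 gene symbol were kept (41091), 1 per gene with the highest mean over the 6 Pfeiffer arrays, and genes in the brighter part of 19775 were tested (lowest mean 7.37). Signals were taken as log2(signal + 16). Groups were compared with limma 3.58.1 (trended eBayes, Benjamini-Hochberg over 9888 genes, threshold 0.05) in R 4.3.3, and the lines on all 12 arrays. The fit was tested on simulated data. Named were BCL6, the 20 largest rises and falls without overlap, per list up to 2 called genes in each direction, and the 6 largest line differences either way; further members were named after their values were seen. Members and lists were chosen with earlier results of these data known. Promoter windows came from RefSeq (GRCh38.p14). Same-numbered arrays did not deviate together (correlations -0.066, 0.074 and 0.132).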

Additional observations from a re-analysis of the deposited data

Results flagged for a closer look

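The limma test of the difference in response between the lines, over all 12 arrays, called 848 genes. Of these, 13 were flagged and are given here. BCL6 itself stood at -0.54 (adjusted p = 0.00466). More positive in Pfeiffer were the noncoding LINC01943 (difference 2.67, adjusted p = 0.011), IKBKB-DT (2.16, adjusted p = 0.00082), SLC12A8 (1.98, adjusted p = 0.024), the activin subunit INHBE (1.95, adjusted p = 0.0189), CMAS (1.92, adjusted p = 1.08e-05) and the zinc finger gene ZBED2 (1.91, adjusted p = 0.044). All arrays of OCI-Ly7 lay below 7.37, the lowest mean level kept, for LINC01943, SLC12A8, INHBE and ZBED2, and the control mean of IKBKB-DT in Pfeiffer did too. In Pfeiffer itself IKBKB-DT, INHBE and ZBED2 changed by 0.91, 0.79 and 1.12, so part of each difference came from OCI-Ly7. INHBE lost its Pfeiffer call without control replicate 1, 2 or 3 or siRNA replicate 1 or 2. In the fit on all 12 arrays INHBE and ZBED2 were not called in Pfeiffer.

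More negative in Pfeiffer were NAPSB (difference -2.79, limma, adjusted p = 1e-06), AFF3 (-2.33, adjusted p = 1e-06), LINC01215 (-2.18, adjusted p = 1.69e-06), SHROOM1 (-1.83, adjusted p = 0.014), ALOX5AP (-1.81, adjusted p = 3.15e-08) and the chaperone of chemosensory receptors RTP4 (-1.78, adjusted p = 0.0125). SHROOM1 changed by -0.23 in Pfeiffer, which was not called, and by 1.60 in OCI-Ly7, where all its arrays were below 7.37. RTP4 changed by -1.02 in Pfeiffer (limma, adjusted p = 0.0503) and by 0.76 in OCI-Ly7, and its siRNA mean in Pfeiffer (6.94) lay below 7.37. NAPSB, AFF3, LINC01215 and ALOX5AP changed by 0.33, 0.19, 0.21 and 0.26 in OCI-Ly7, none of them called. Apart from BCL6, the flagged genes were chosen for the size of their difference, and no cause was tested.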

How the results depend on the processing

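Nothing says that the arrays are separate cultures, and with 3 an arm, small changes could not be told from the spread. The Pfeiffer count of 1389 called genes was 918 with no filter on dim genes, 824 on the mean of all probe sets, 861 without the variance trend and 75 at 2-fold or more, and ran from 751 to 1667 on leaving out 1 array. It stayed within 1.5 times under quantile normalization (1413, of which 1348 were shared), a pseudocount of 1 (1389) or 64 (1394), a higher filter on level (1071), no cross-binding probe sets (951), array weights (1751) and the fit on all 12 arrays (1518). BCL6 was called under each, at -0.86 to -1.08. The count of line differences, 848, was 513 on the mean of all probe sets and 546 without cross-binding probe sets, and ran from 629 to 962 on leaving out 1 array. HDAC5 reversed to 0.15 and SHROOM1 to 0.26 on the mean of all probe sets, and LTB to 0.37 and SHROOM1 to 0.21 without cross-binding probe sets. The cause was not tested. With the replicate block, 1468 genes were called, BCL6 stood at -0.96 and 699 differences were called. Same-numbered arrays share only a number.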
